A study of Mus musculus with 29 samples.

Results

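A set of 10 genes of excitation-contraction coupling and calcium handling was followed across a microRNA transfection experiment in C2C12, an established line of mouse myoblasts that fuse into myotubes on differentiation. The genes were Cacna1s, Cacnb1, Cacng1, Stac3, Ryr1, Ryr3, Casq2, Atp2a1, Jph1 and Jph2, which is 10 of the 19938 genes that the arrays could name singly. Each gene was read from the probe set that carried its symbol alone and had the highest mean over the 27 transfected arrays. All 10 genes had such a probe set, no filter on dim genes was applied, and every value of the 10 in a transfected array was at least 7.64 on the log2 scale, above 6.67, the median of the probe sets with no listed gene.

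Cells at passage 27 in growth medium received 50 nM of a mimic of miR-1 or miR-34a, of miR-22, of miR-365, of miR-29a or miR-145, or of Let-7b, and the control cells received the same dose of AllStar, an oligonucleotide sold as a negative control. Total RNA was taken after 36 h, from 3 transfections of each microRNA and 3 of the control. The control also had a technical repeat of each array, which was averaged with the array of its number. Terminally differentiated myotubes and untransfected proliferating myoblasts at 70% confluence had 1 array each. All cells were of a single line, so the replicates are repeats of the transfection and not of animals. Levels are log2 values after robust multi-array averaging (RMA), a difference of 1 is therefore a doubling, and precision is limited by how many arrays each group has. The 29 array medians lay between 7.24 and 7.39.

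In skeletal muscle an action potential is sensed in the transverse tubule by a voltage-gated calcium channel, which acts on the ryanodine receptor of the facing sarcoplasmic reticulum and releases stored calcium. Calcium held in the store by calsequestrin then reaches the myofilaments, and a calcium pump returns it. Junctophilins hold the tubule and the reticulum close together. Much of this equipment is made as myoblasts differentiate.

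The mimics are known by their mature sequence, of which bases 2 to 8, the seed, direct the microRNA to its targets. The mature strands of 5 of the 7 microRNAs, from the RefSeq entries used here (build GRCm38.p6), are shown 5′ to 3′ with the seed in capitals, because the comparisons below are between cells that received them. The labels name the microRNA and not its arm, so the strand shown is the one usually taken as the guide. No 2 of these 5 share a seed.
miR-34a-5p: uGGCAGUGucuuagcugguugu
miR-22-3p: aAGCUGCCaguugaagaacugu
miR-365-3p: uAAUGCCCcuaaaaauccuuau
miR-29a-3p: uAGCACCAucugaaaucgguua
let-7b-5p: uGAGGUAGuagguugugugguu
The miR-34a strand lies at chr4:150068473-150068494 on the plus strand, the miR-22 strand at chr11:75463772-75463793 on the plus strand, and the miR-29a strand at chr6:31062673-31062694 on the minus strand. The let-7b strand lies at chr15:85707325-85707346 on the plus strand. The miR-365 strand has 2 copies, at chr11:79726467-79726488 and chr16:13453895-13453916, both on the plus strand.

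Mimic of miR-1 was followed by higher levels of 9 of the 10 genes against control, with a median difference of 0.82 over the 10 against −0.001 over all genes. Mimic of miR-34a was followed by higher levels of 4, miR-29a of 2 and miR-145 of 1. Mimic of miR-365 was followed by lower levels of 3 and higher levels of none. No gene of the 10 passed under miR-22 or Let-7b. A gene passed where the adjusted p of limma's moderated test, Benjamini-Hochberg adjusted over all 19938 genes, was under 0.05.

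These counts stand against the background of all 19938 genes. Under miR-1, 13.2% of all genes were higher than control and 10.5% lower. The shares were 5.62% higher and 6.06% lower under miR-34a, 8.82% higher and 5.67% lower under miR-22, and 11.7% higher and 8.33% lower under miR-365. They were 5.54% higher and 4.78% lower under miR-29a, 3.85% higher and 3.00% lower under miR-145, and 5.46% higher and 5.46% lower under Let-7b. The single call under miR-145 is a share of the 10 that is not far from its background. All 7 comparisons use the same 3 control values, so they are not independent of each other. At an unadjusted p under 0.05 in limma, 4 of the 10 were higher under miR-22, where 14.5% of all genes were, and 2 of the 10 were lower under Let-7b, where 10.1% of all genes were.

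**Figure D1:**
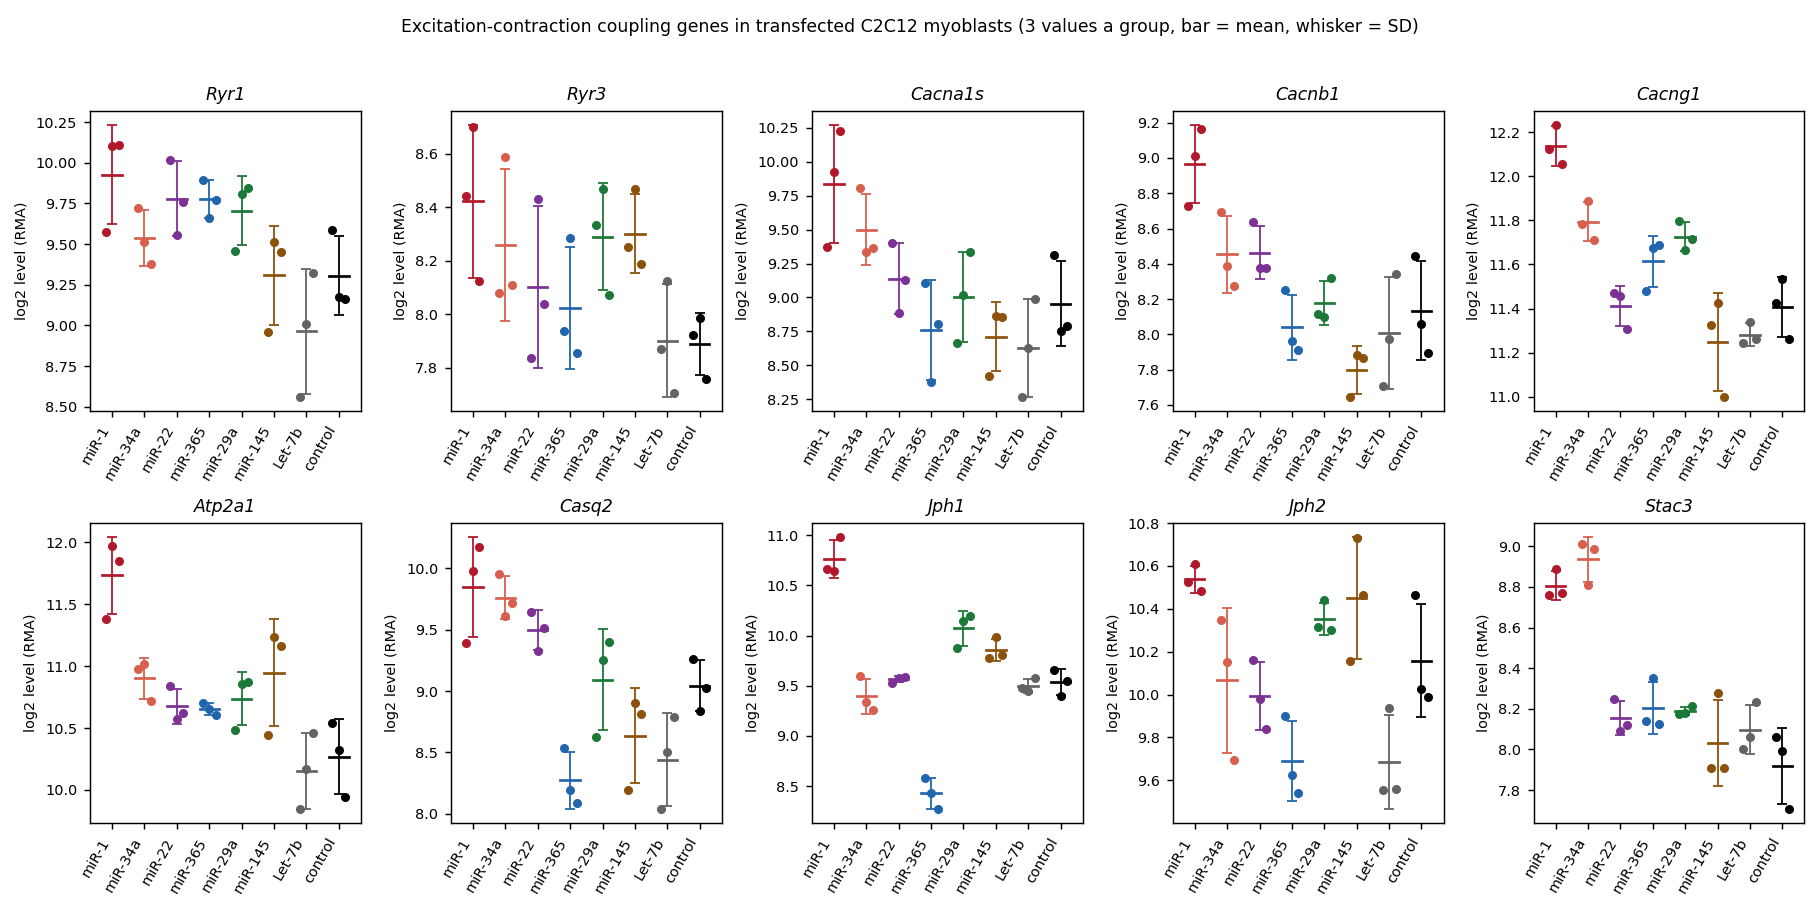
Log2 level of each of the 10 genes in every transfected sample, by mimic and with the AllStar control on the right. Points are the 3 values of a group, the bar is their mean and the whisker their SD. The 3 miR-1 values of Jph1 lie from 10.65 to 10.98 and its 3 miR-365 values from 8.27 to 8.58, against 9.40 to 9.66 in control.

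Over all 7 comparisons with the control together, limma's F test called 9 of the 10 genes, where 49.4% of all genes were called. The smallest adjusted p was 4.7e-11 for Jph1, followed by 8.6e-08 for Stac3 and 2.3e-07 for Cacng1. Ryr3 missed the threshold, with an adjusted p of 0.0619 in that F test. Of the 19 calls of a gene under a microRNA, 16 higher and 3 lower, 8 held whichever single sample of the microRNA or of the control was left out. Those 8 were Jph1 under miR-1, miR-365 and miR-29a, Stac3 under miR-1 and miR-34a, and Cacnb1, Cacng1 and Atp2a1 under miR-1. The other 11 each lost the call in at least 1 such fit, and the samples concerned are named with each gene.

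The voltage sensor comes first. Cacna1s encodes the pore-forming subunit of the skeletal muscle calcium channel that senses voltage. Its log2 levels (probe set 10350199) were 9.37, 9.92 and 10.23 under miR-1, against 9.31, 8.75 and 8.79 in control. The groups did not overlap, but miR-1 replicate 1 lay only just above control replicate 1. The difference was 0.89 ± 0.23 (SE, n = 3 each; limma adjusted p = 0.00666), a level 1.85-fold higher. Without miR-1 replicate 3 its adjusted p in limma was 0.0634. Under miR-34a the values of Cacna1s were 9.81, 9.33 and 9.36, all above the control values, and the difference of 0.55 ± 0.23 did not pass (limma adjusted p = 0.165).

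Cacnb1 encodes the beta subunit that carries the channel to the membrane of the tubule. It had log2 levels (probe set 10390542) of 8.73, 9.01 and 9.17 under miR-1, against 8.44, 8.06 and 7.90 in control. All 3 miR-1 values lay above every value of the other 7 groups, so that miR-1 stood apart as the highest group. The difference from control was 0.83 ± 0.16 (SE, n = 3 each; limma adjusted p = 3.1e-04). The lowest group was miR-145, with 7.64, 7.89 and 7.87, just under all control values. That difference of −0.33 ± 0.16 did not pass against control (limma adjusted p = 0.251).

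Cacng1 encodes the gamma subunit of the same channel. Probe set 10392364 read log2 levels of 12.12, 12.23 and 12.05 under miR-1, against 11.43, 11.53 and 11.26 in control. Under miR-34a they were 11.78, 11.89 and 11.71, and under miR-29a 11.80, 11.67 and 11.71. All 3 of these groups lay wholly above the control, and miR-1 lay wholly above the other 2. The differences were 0.73 ± 0.09 under miR-1 (SE, n = 3 each; limma adjusted p = 2.2e-06), 0.39 ± 0.09 under miR-34a (limma adjusted p = 0.00617) and 0.32 ± 0.09 under miR-29a (limma adjusted p = 0.025). The miR-34a call of Cacng1 ended without control replicate 3 (adjusted p = 0.0553 in limma). Its miR-29a call ended without any of 4 samples, with adjusted p values in limma of 0.0889 without miR-29a replicate 1, 0.0678 without miR-29a replicate 3, 0.0532 without control replicate 1 and 0.17 without control replicate 3.

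Stac3 encodes an adaptor that is needed for the channel to reach the membrane and to act on the ryanodine receptor. It is the gene of the 10 in which miR-34a gave the highest mean. Its log2 levels (probe set 10366938) were 9.01, 8.81 and 8.99 under miR-34a and 8.76, 8.89 and 8.77 under miR-1, against 8.06, 7.99 and 7.71 in control. The miR-34a and miR-1 values overlapped each other, and both groups lay above every value of the other 5 mimics and the control. Stac3 was 2.02-fold higher under miR-34a (difference 1.02 ± 0.10, SE, n = 3 each; limma adjusted p = 5.5e-07) and 1.85-fold higher under miR-1 (0.89 ± 0.10; limma adjusted p = 1.1e-06).

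Under miR-1 the calcium release channels showed smaller differences than the genes above. Ryr1 encodes the main ryanodine receptor of skeletal muscle. Probe set 10561561 read log2 levels of 9.57, 10.10 and 10.11 under miR-1, against 9.58, 9.17 and 9.16 in control. The groups overlapped, because miR-1 replicate 1 and control replicate 1 had almost the same value. The difference was 0.62 ± 0.19 (SE, n = 3 each; limma adjusted p = 0.0164). With miR-1 replicate 2 or 3 left out, its adjusted p in limma was 0.0701 or 0.0914, and with control replicate 2 or 3 left out it was 0.0731 or 0.0767. Under miR-365 the values were 9.89, 9.66 and 9.77, all above control, with a difference of 0.47 ± 0.19 that did not pass (limma adjusted p = 0.0853). Without control replicate 1 the miR-365 difference of Ryr1 was 0.61 and passed (limma adjusted p = 0.0402).

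Ryr3 encodes a second ryanodine receptor, which in mouse skeletal muscle is found mainly early in life. Its log2 levels (probe set 10485840) were 8.44, 8.70 and 8.13 under miR-1, against 7.92, 7.98 and 7.76 in control. The miR-1 values lay above all control values, and the difference was 0.53 ± 0.17 (SE, n = 3 each; limma adjusted p = 0.0228). This call ended without miR-1 replicate 1 (0.0556), miR-1 replicate 2 (0.125) or control replicate 3 (0.0978), all adjusted p values in limma. In each of the 8 groups the replicate numbered 2 had the highest Ryr3 value. Under miR-34a, miR-29a and miR-145 all 3 values lay above the control values as well, with differences of 0.37, 0.40 and 0.41 that did not pass. In a model with a replicate block, the adjusted p of Ryr3 in limma was 0.00484 under miR-34a, 0.00271 under miR-29a and 0.00329 under miR-145. For miR-145 the deviations of replicate 2 and control replicate 2 did not go together (r = −0.04), so its block value has less ground.

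The store and the pump follow. Atp2a1 encodes the calcium pump of fast skeletal muscle, which returns calcium to the sarcoplasmic reticulum, and it had the largest difference from control of the 10 genes under any mimic. Its log2 levels (probe set 10567879) were 11.38, 11.97 and 11.85 under miR-1, against 10.54, 10.32 and 9.94 in control. All 3 miR-1 values lay above every value of the other 7 groups. Atp2a1 was 2.76-fold higher under miR-1 (difference 1.46 ± 0.19, SE, n = 3 each; limma adjusted p = 3.7e-06).

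Atp2a1 also passed under miR-34a, with 10.97, 11.01 and 10.71, and under miR-145, with 10.45, 11.23 and 11.16. The miR-34a values lay above the control, while miR-145 replicate 1 lay among the control values. The differences were 0.63 ± 0.19 under miR-34a (SE, n = 3 each; limma adjusted p = 0.0313) and 0.68 ± 0.19 under miR-145 (limma adjusted p = 0.0325). The miR-34a call ended without miR-34a replicate 1 or 2 or control replicate 2 or 3, with a largest adjusted p of 0.205 in limma. The miR-145 call ended without miR-145 replicate 2 or 3 or control replicate 2 or 3, with a largest adjusted p of 0.195 in limma. In no group except Let-7b was the mean of Atp2a1 below that of the control.

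Casq2 encodes the cardiac form of calsequestrin, the calcium-binding protein of the store, which slow skeletal fibres also make. Probe set 10494804 read log2 levels of 9.39, 9.98 and 10.18 under miR-1 and 9.95, 9.61 and 9.72 under miR-34a, against 9.26, 8.84 and 9.03 in control. They were 8.53, 8.19 and 8.09 under miR-365. Both higher groups lay above the control and miR-365 lay below it, so that Casq2 passed in both directions. The differences from control were 0.81 ± 0.22 under miR-1 (SE, n = 3 each; limma adjusted p = 0.00929), 0.72 ± 0.22 under miR-34a (limma adjusted p = 0.0369) and −0.77 ± 0.22 under miR-365 (limma adjusted p = 0.0153).

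Each Casq2 call rested on particular samples. The miR-1 call ended without miR-1 replicate 3 (adjusted p = 0.0766 in limma) or control replicate 2 (0.0529). The miR-34a call ended without miR-34a replicate 1 or 3 or control replicate 2 or 3, with a largest adjusted p of 0.158 in limma, and the miR-365 call without miR-365 replicate 3 (0.0796) or control replicate 1 (0.0752). Under Let-7b the values were 8.04, 8.50 and 8.79, all below the control, and the difference of −0.60 ± 0.22 did not pass (limma adjusted p = 0.0964).

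**Figure D2:**
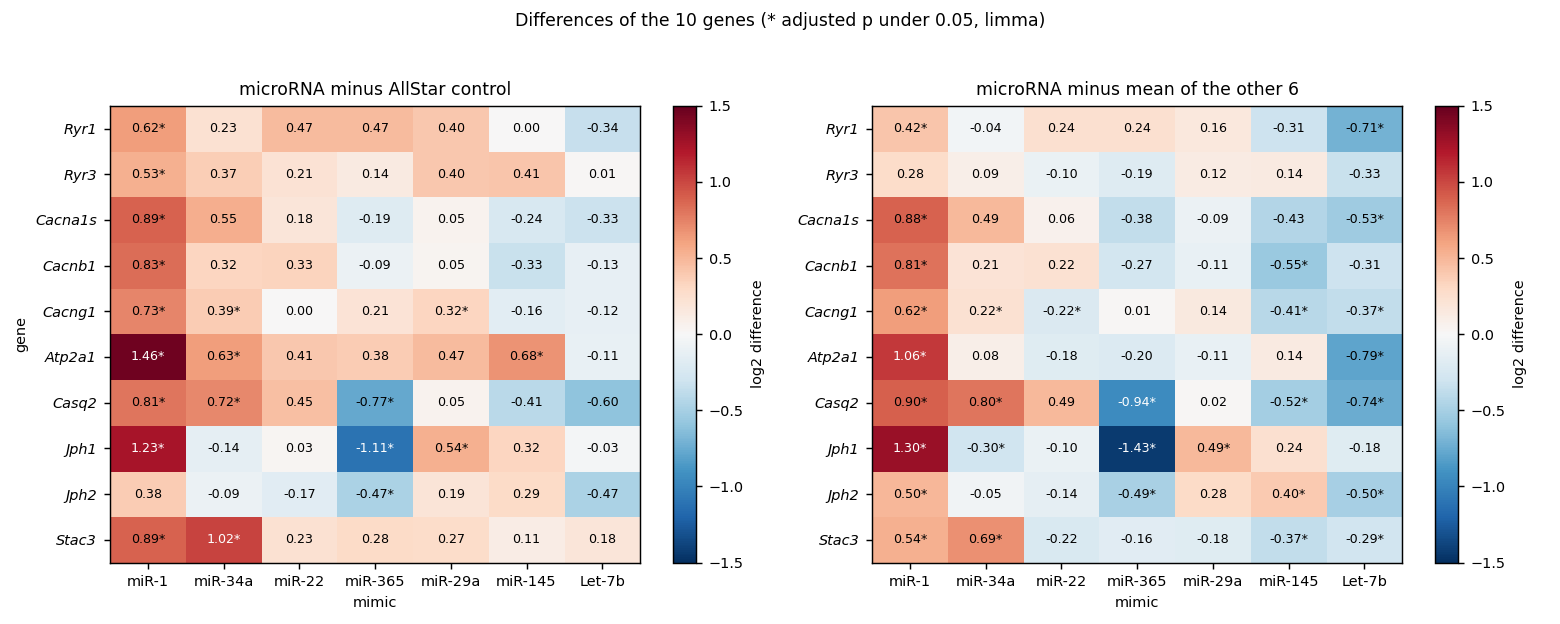
Log2 differences of the 10 genes (down) under the 7 mimics (across), on the left against the AllStar control and on the right against the mean of the other 6 mimics. An asterisk marks an adjusted p under 0.05 in limma. On the left the miR-1 column holds 9 asterisks, from 0.53 for Ryr3 to 1.46 for Atp2a1, and on the right Let-7b holds 7, all negative.

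The junctophilins separated miR-1 from miR-365. Jph1 encodes the junctophilin of skeletal muscle, and its log2 levels (probe set 10353309) were 10.67, 10.65 and 10.98 under miR-1 and 8.58, 8.43 and 8.27 under miR-365, against 9.66, 9.40 and 9.55 in control. The miR-1 values were the highest and the miR-365 values the lowest of all 8 groups, and neither group overlapped any other. Jph1 was 2.35-fold higher under miR-1 (difference 1.23 ± 0.11, SE, n = 3 each; limma adjusted p = 3.4e-08) and 2.15-fold lower under miR-365 (−1.11 ± 0.11; limma adjusted p = 1.3e-07). Under miR-29a the values were 9.87, 10.15 and 10.20, again all above the control, with a difference of 0.54 ± 0.11 (limma adjusted p = 0.00187). Under miR-145 they were 9.78, 9.99 and 9.81, above the control too, but the difference of 0.32 ± 0.11 did not pass (limma adjusted p = 0.0808).

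A second probe set of Jph1 (10353311) gave like values in a fit over all probe sets. Its differences were 1.07 ± 0.10 under miR-1 (SE, n = 3 each; limma adjusted p = 3.3e-07), −0.91 ± 0.10 under miR-365 (limma adjusted p = 2.6e-06) and 0.43 ± 0.10 under miR-29a (limma adjusted p = 0.00894). All 3 directions were thus the same in both probe sets.

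Jph2 encodes the junctophilin best known from heart, which skeletal muscle also makes. Probe set 10489355 read log2 levels of 9.90, 9.63 and 9.54 under miR-365, against 10.46, 10.02 and 9.99 in control. The groups did not overlap, and the difference was −0.47 ± 0.16 (SE, n = 3 each; limma adjusted p = 0.0393). Its adjusted p in limma was 0.106 without miR-365 replicate 2, 0.17 without miR-365 replicate 3 and 0.239 without control replicate 1. Jph2 was the 1 gene of the 10 that did not pass under miR-1, where its values of 10.52, 10.61 and 10.48 lay just above the highest control value (difference 0.38 ± 0.16; limma adjusted p = 0.0965).

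The second probe set of Jph2 (10489357) had smaller errors and passed under 4 mimics in the fit over all probe sets. Its differences were 0.42 ± 0.10 under miR-1 (SE, n = 3 each; limma adjusted p = 0.00573), 0.40 ± 0.10 under miR-145 (limma adjusted p = 0.0309), −0.38 ± 0.10 under miR-365 (limma adjusted p = 0.0162) and −0.41 ± 0.10 under Let-7b (limma adjusted p = 0.0173). The directions were those of the brighter probe set, whose miR-365 difference had an adjusted p of 0.0762 in that larger limma fit.

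**Figure D3:**
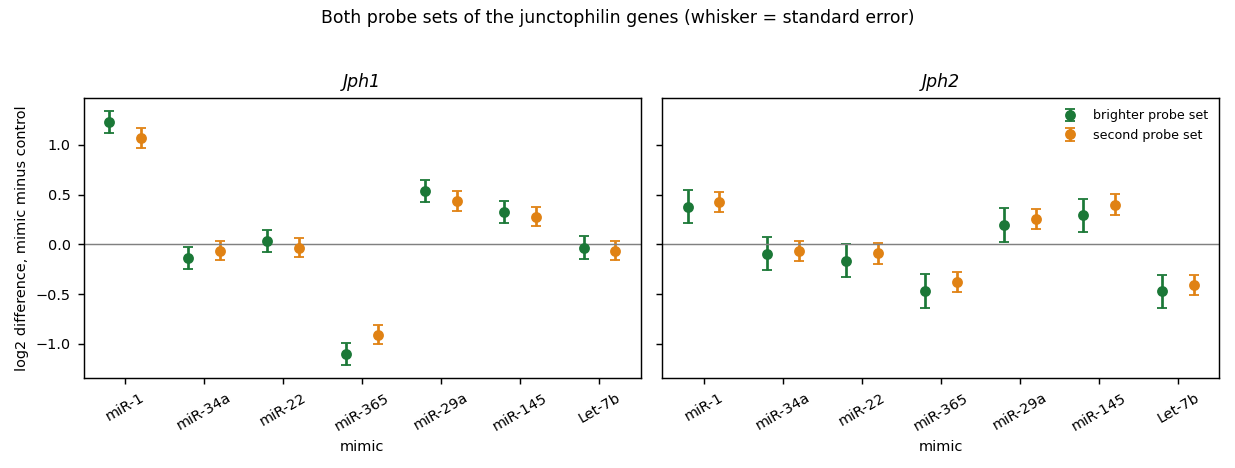
Log2 difference from control of both probe sets of Jph1 (left) and Jph2 (right) under each mimic, with the standard error as whisker. For Jph1 both probe sets lie above 1 under miR-1 and near −1 under miR-365, and for Jph2 the brighter probe set has the wider whiskers.

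Samples of the same replicate number deviated together under miR-365, miR-34a, miR-29a and miR-22, so calls from a model with a replicate block are added for these. With the block, 5 of the 10 genes passed under miR-34a, all higher, where 8.15% of all genes were higher in that model. Under miR-22 it called 0 of the 10, where 12.3% of all genes were higher and 7.88% lower. Under miR-365 the same block gave 2 higher and 3 lower, against 15.3% and 10.4% of all genes, the added genes being Cacng1 (difference 0.21; limma adjusted p = 0.0415) and Stac3 (0.28; limma adjusted p = 0.0452). Under miR-29a it gave 3 higher, where 8.74% of all genes were higher. The genes gained under miR-34a and miR-29a were Ryr3 in both.

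When each mimic is set against the mean of the other 6, the difference uses no control value, while its error comes from the spread in all 8 groups. For every mimic but miR-1 that mean holds the raised miR-1 values, so these comparisons are not independent of each other. A gene can therefore be lower than the other 6 without being lower than control. Against the other 6, miR-1 was higher in 9 genes, where 15.0% of all genes were higher. The exception here was Ryr3 (0.28; not called), and Jph2 passed (0.50 ± 0.12; limma adjusted p = 0.00281). The largest differences were 1.30 ± 0.08 for Jph1 (limma adjusted p = 2.1e-10) and 1.06 ± 0.15 for Atp2a1 (limma adjusted p = 5.6e-06). Only Ryr1 lost this call when 1 miR-1 sample was left out, with adjusted p values in limma of 0.157 (replicate 2) and 0.226 (replicate 3).

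Let-7b had the most lower calls in this comparison. Against the other 6 mimics it was lower in 7 of the 10 genes, where 10.3% of all genes were lower, although none of the 10 passed against the control. The 7 were Ryr1 (−0.71 ± 0.14; limma adjusted p = 8.2e-04), Cacna1s, Cacng1 (−0.37 ± 0.07; limma adjusted p = 3.9e-04), Atp2a1 (−0.79 ± 0.15; limma adjusted p = 3.5e-04), Casq2, Jph2 and Stac3. The Stac3 mean under Let-7b, 8.10, lay above its control mean of 7.92. Without Let-7b replicate 1, the sample with the lowest mean of the 10 genes, 3 of the 10 passed. The calls lost were those of Cacna1s, Casq2, Jph2 and Stac3, with adjusted p values in limma of 0.334, 0.0653, 0.0514 and 0.108. Cacna1s (0.124) and Stac3 (0.0735) also lost the call without Let-7b replicate 2, and Jph2 (0.0572) without Let-7b replicate 3.

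For the other mimics the genes that passed are given one mimic at a time. Casq2 (−0.94 ± 0.17; limma adjusted p = 1.8e-04), Jph1 (−1.43 ± 0.08; limma adjusted p = 1.5e-11) and Jph2 (−0.49 ± 0.12; limma adjusted p = 0.00349) were lower under miR-365 than under the other 6, where 11.3% of all genes were lower. These are the 3 genes that were lower than control under the same mimic. Under miR-34a, Stac3 (0.69 ± 0.08; limma adjusted p = 1.8e-06), Casq2 (0.80 ± 0.17; limma adjusted p = 0.0021) and Cacng1 (0.22 ± 0.07; limma adjusted p = 0.033) were higher, and Jph1 (−0.30 ± 0.08; limma adjusted p = 0.0161) was lower, where 5.90% of all genes were higher and 8.18% lower. The miR-34a calls of Cacng1 and Jph1 each ended when miR-34a replicate 2 or 3 was left out, and that of Cacng1 also without replicate 1.

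Under miR-29a only Jph1 was higher than under the other 6 (0.49 ± 0.08; limma adjusted p = 1.9e-04), where 8.80% of all genes were higher, so that 1 of 10 is near the background. Under miR-145, Jph2 was higher (0.40 ± 0.12; limma adjusted p = 0.0248), where 10.3% of all genes were higher, again near the background. Cacnb1 (−0.55 ± 0.12; limma adjusted p = 0.00216), Cacng1, Casq2 and Stac3 were lower under miR-145, where 8.59% of all genes were lower. Against control, the Stac3 mean under miR-145 was not lower (difference 0.11). The call of Jph2 ended without miR-145 replicate 2 or 3 and that of Casq2 without miR-145 replicate 1 or 3, with largest adjusted p values in limma of 0.207 and 0.316. Under miR-22 only Cacng1 was lower (−0.22 ± 0.07; limma adjusted p = 0.031), where 6.33% of all genes were lower, a count near the background, and that call ended without any 1 of the 3 miR-22 samples. Against control, Cacng1 under miR-22 had a difference of only 0.004. With the replicate block, 1 gene was higher and 2 were lower under miR-22, where 13.2% of all genes were higher and 8.67% lower, Casq2 (0.49; limma adjusted p = 0.0319) and Stac3 (−0.22; limma adjusted p = 0.0448) being added. The same block added Cacna1s under miR-34a (0.49; limma adjusted p = 0.0485) and Ryr3 under miR-365 (−0.19; limma adjusted p = 0.0381).

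The order of the 8 groups differed between genes. The miR-1 mean was the highest in 9 of the 10 genes. No share of all genes was taken for this rank or for the overlaps that follow, so they describe the 10 genes only. In Ryr1, Ryr3, Cacna1s, Casq2 and Jph2 every neighbouring pair of groups in the order of means overlapped. In Cacnb1, miR-1 stood apart from the next group, miR-22. In Atp2a1, miR-1 stood apart from miR-145 and miR-365 from the control. In Cacng1, miR-1 stood apart from miR-34a and miR-365 from miR-22, and in Stac3, miR-1 stood apart from miR-365. Jph1 had the most gaps, between miR-1 and miR-29a, between miR-145 and miR-22, and between miR-34a and miR-365.

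Across the 24 values the 10 genes moved together to different degrees. Cacna1s and Cacnb1 had a Pearson's r of 0.923 and Cacna1s and Casq2 one of 0.904, while Cacna1s and Ryr3 had the lowest, 0.173. With the mean of the 10 genes, each centred, Cacna1s correlated best (0.907) and Ryr3 least (0.522). Outside the 10, the genes most like that mean over the 24 values were Sorbs2 (r = 0.948), Akap6 (0.923), Myom2 (0.912), Nrap (0.908) and Neurl1a (0.906). These correlations describe values that share arrays and groups, and no test was made on them.

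Untransfected cells gave the levels on both sides of differentiation, from 1 array each and so without a test. All 10 genes were higher in myotubes than in myoblasts, 8 of them by at least 1.5-fold, where 7.42% of all genes were. The median difference of the 10 was 0.93, against −0.02 over all genes. Casq2 had a log2 level of 12.50 in myotubes, against 11.26 in myoblasts, and Ryr1 had 12.13 in myotubes, against 10.93 in myoblasts. These were the largest differences, 1.25 and 1.20. Jph2 had 11.01 in myotubes, against 10.81 in myoblasts, the smallest difference of 0.20. Cacng1, with 12.79 in myotubes and 12.34 in myoblasts, was the other gene under 1.5-fold.

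Control-transfected cells had lower levels than untransfected myoblasts in all 10 genes, by at least 1.5-fold in 9, where 3.27% of all genes were that much lower. The median difference was −1.44, against −0.01 over all genes. Atp2a1 averaged 10.27 ± 0.30 in control cells (SD, n = 3), against 12.61 in the 1 myoblast array, a difference of −2.34. Cacna1s averaged 8.95 ± 0.31 in control cells (SD, n = 3), against 11.28 in the myoblast array, and Casq2 averaged 9.04 ± 0.21, against 11.26. The smallest difference was −0.50 for Ryr3, with 7.89 ± 0.12 in control cells (SD, n = 3) and 8.38 in the myoblast array. The highest miR-1 value of Atp2a1, 11.97, lay below the untransfected myoblasts. In Jph1 and Ryr3 the miR-1 mean lay just above the myoblast array, at 10.77 against 10.72 and at 8.42 against 8.38. In all the other genes of the set the miR-1 mean lay below it. The control and the untransfected cells differ in transfection and possibly in culture, and with 1 array these cannot be told apart.

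**Figure D4:**
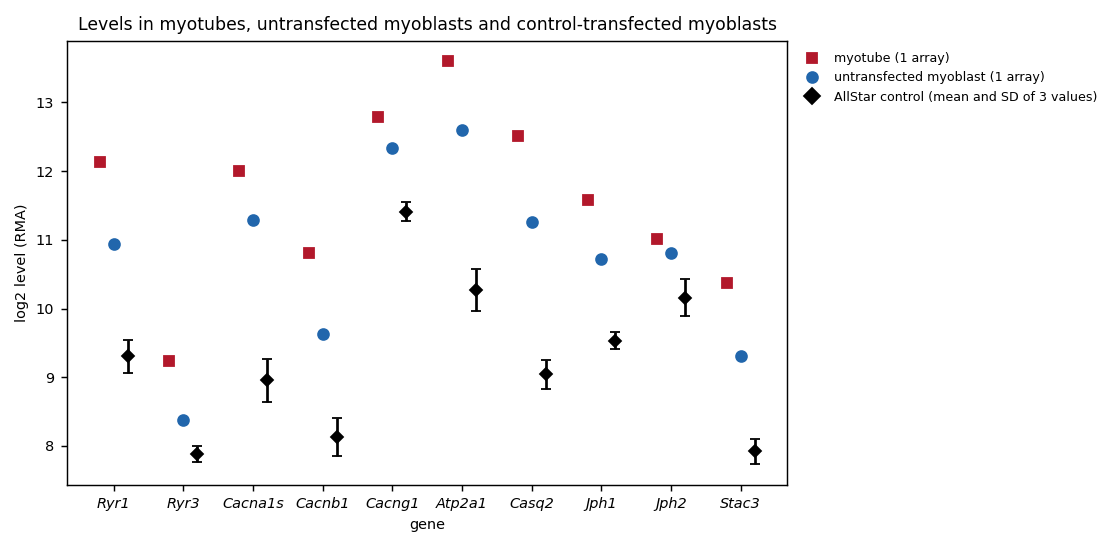
Log2 level of each gene in the myotube array, the untransfected myoblast array and the AllStar control (mean and SD of 3 values). In all 10 genes the order is the same, with the myotube highest and the control lowest. The widest distance between myotube and control is 3.46, for Casq2.

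Markers of differentiated muscle are set beside these genes as measured values. Of 14 listed and measured markers of differentiated muscle, 8 were higher than control under miR-1, 7 under miR-34a, 6 under miR-22, 2 under miR-29a, 1 under miR-145 and 0 under miR-365, and 1 was lower under Let-7b. Their mean log2 level was 10.44 under miR-1 (range over samples 10.08 to 10.62), 10.45 under miR-34a, 10.46 under miR-22, 10.00 under miR-365, 10.12 under miR-29a, 10.07 under miR-145 and 9.49 under Let-7b, against 9.79 in control (9.70 to 9.88). It was 12.48 in the myotube and 11.47 in the untransfected myoblast array. The labelled myoblasts thus already held these markers at a level above that of every transfected group. Under miR-22 the marker mean was as high as under miR-1, while none of the 10 coupling genes passed. Yet 9 of the 10 had a positive difference under miR-22, with a median of 0.22 against −0.01 over all genes. Under miR-365 no marker passed, while 3 of the 10 coupling genes were lower.

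Of 8 listed proliferation markers 7 were measured, and all 7 were lower than control under miR-1, 5 under miR-34a, 5 under miR-22, 6 under miR-365 and 1 under miR-145. Their mean log2 level was 10.97 under miR-1 and 11.44 under miR-365, against 11.97 in control, and it was 10.32 in myotubes and 11.55 in untransfected myoblasts. The part of differentiation and proliferation in the differences of the 10 genes was not tested, and in a bulk sample fewer cells of a type and less RNA per cell cannot be told apart. Mean log2 levels of listed markers of other tissues in the 8 transfected groups ran between 6.14 and 6.28 for 4 fat genes, 6.25 and 6.38 for 3 bone genes, 6.85 and 7.04 for 6 cardiac genes, and 7.26 and 7.63 for 4 neuronal genes. Group means under 6.67 were found for 2 of the 4 fat genes, 1 or 2 of the 3 bone genes, 1 or 2 of the 6 cardiac genes and 1 of the 4 neuronal genes. The 4 smooth muscle genes, which cultured myoblasts also make, lay between 10.74 under miR-1 and 11.26 under miR-145, against 11.04 in control. Of these 4, 3 were lower than control under miR-1, 2 under miR-365 and 2 under Let-7b, while 2 were higher under miR-145 and 1 under miR-29a, and their part in the results was not tested.

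**Figure D5:**
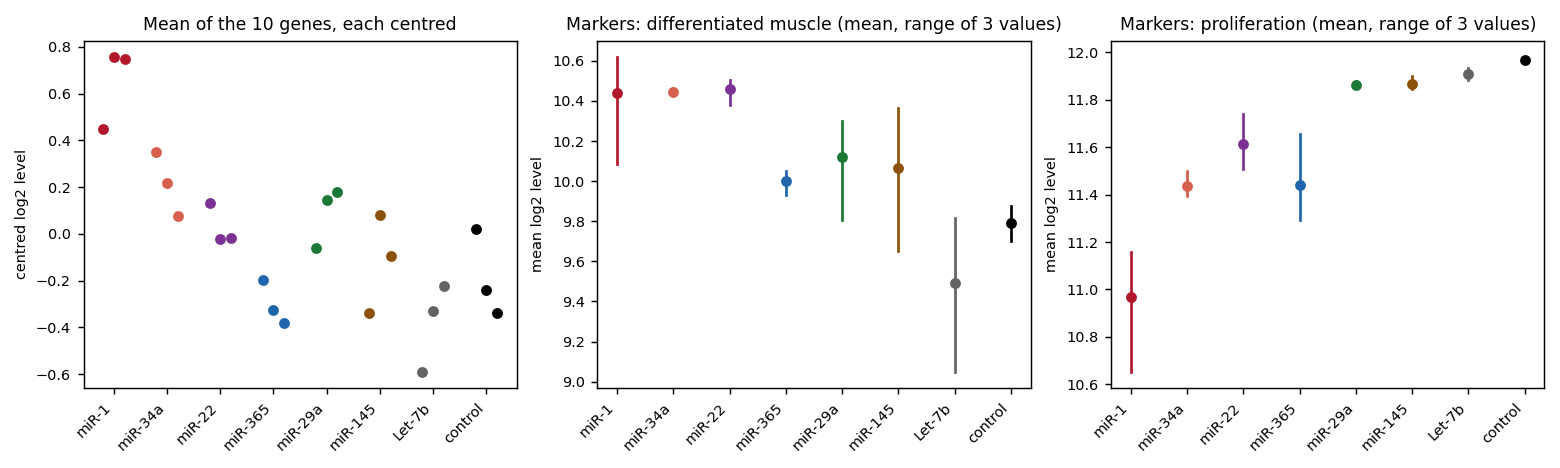
Left, mean of the 10 genes in each sample, each gene centred on its own mean over 24 values. Middle and right, mean log2 level of the differentiated muscle and of the proliferation markers, as group mean (point) with the range of its 3 values (line). The 3 miR-1 samples are the highest on the left, at 0.45, 0.76 and 0.75, against 0.02, −0.24 and −0.34 in control, while miR-1, miR-34a and miR-22 lie close together in the middle.

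Of 95 other genes of calcium handling listed by role, 83 were measured. Under miR-1, 31 of them were higher and 7 lower than control, where 13.2% of all genes were higher and 10.5% lower. Under miR-34a 12 were higher and 3 lower (all genes 5.62% and 6.06%), and under miR-22 12 and 6 (8.82% and 5.67%). The counts were 8 and 7 under miR-365 (11.7% and 8.33%) and 7 and 6 under miR-29a (5.54% and 4.78%). They were 4 and 3 under miR-145 (3.85% and 3.00%) and 9 and 5 under Let-7b (5.46% and 5.46%). The median difference of the 83 genes under miR-1 was 0.10, against 0.82 for the 10 genes. Each gene named below is given first under the mimic with its largest difference, and the other mimics under which it passed follow. Between the 2 untransfected arrays, 26 of the 83 were at least 1.5-fold higher in the myotube, where 7.42% of all genes were. Lower by as much was 1 gene, and no share of all genes was taken for that direction.

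Among genes of release and its regulators, 7 of 18 measured were higher and 2 lower under miR-1. Trdn, which encodes triadin, the anchor of calsequestrin at the ryanodine receptor, had log2 levels of 9.61, 10.49 and 10.81 under miR-1, against 8.86, 8.52 and 8.67 in control. No values overlapped, and Trdn was 3.07-fold higher (1.62 ± 0.27, SE, n = 3 each; limma adjusted p = 7.7e-05). Srl, which encodes sarcalumenin, a calcium-binding protein of the reticulum, was higher under miR-1 by 0.97 ± 0.17 (limma adjusted p = 1.3e-04). Pvalb, which encodes the calcium buffer parvalbumin, had log2 levels of 6.92, 7.21 and 7.83 under miR-34a, against 6.15, 6.33 and 6.54 in control, and passed as higher (limma adjusted p = 4.5e-04). Its control values lay under the 6.67 of probe sets without a gene, so no size is given. Casq1, the fast-fibre calsequestrin, had 9.69, 8.97 and 10.02 under miR-22, against 8.47, 7.90 and 8.44 in control (1.29 ± 0.31; limma adjusted p = 0.00575). Without miR-22 replicate 3 the adjusted p of Casq1 was 0.0561 in limma. Trdn also passed as higher under miR-22 (1.08), Srl under miR-34a (0.83) and Casq1 under miR-1 (1.17).

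Among channel genes, 3 of 12 measured were higher and 1 lower under miR-1. Kcnj2, which encodes an inward rectifier potassium channel that sets the resting potential, had the largest difference of all the related genes under any mimic. Its log2 levels were 9.24, 9.26 and 9.16 under miR-1, against 7.65, 7.47 and 7.29 in control. The groups lay far apart, and Kcnj2 was 3.36-fold higher (1.75 ± 0.20, SE, n = 3 each; limma adjusted p = 1.0e-06). Under miR-145, Cacng7, a gamma-like subunit gene, was higher by 1.04 ± 0.20 (limma adjusted p = 0.00165) and Cacna2d1, the alpha2delta subunit gene, was lower, by −0.48 ± 0.10 (limma adjusted p = 0.0057). Cacna1g, a T-type calcium channel gene, was lower under miR-1 by a difference of −0.28 ± 0.08 (limma adjusted p = 0.0131), a call that ended without miR-1 replicate 3 or control replicate 3. Kcnj2 also passed as higher under Let-7b (1.25) and miR-22 (0.72) and as lower under miR-365 (−0.65, with overlap). Cacng7 was higher under miR-22 (1.03) and miR-29a (0.66) too. Cacna2d1 was higher under miR-1 (0.45), and Cacna1g was lower under miR-34a (−0.26).

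Among reuptake genes, 4 of 11 measured were higher and 1 lower under miR-1. Atp2a2, the pump gene of slow muscle and heart, was higher by 0.41 ± 0.07 (limma adjusted p = 5.9e-05), and Atp2b1, a plasma membrane pump gene, by 0.50 ± 0.09 (limma adjusted p = 2.7e-04). Both are smaller than the 1.46 of Atp2a1. Slc8a1, the sodium-calcium exchanger gene, had a difference of −0.56 ± 0.20 (limma adjusted p = 0.0457), a call that ended without miR-1 replicate 1 or 3 or control replicate 2 or 3. Under miR-34a, Mrln, which encodes the pump inhibitor myoregulin, was higher by 0.47 ± 0.11 (limma adjusted p = 0.00562), and it passed under miR-1 too (0.40). Atp2b1 was lower under miR-29a (−0.42) and Atp2a2 under Let-7b (−0.36).

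Among genes of the triad and its membranes, 8 of 14 measured were higher and 1 lower under miR-1. Dysf, which encodes the membrane repair protein dysferlin, had log2 levels of 9.81, 10.10 and 10.30 under miR-1, against 9.20, 8.78 and 8.86 in control, without overlap (1.12 ± 0.15, SE, n = 3 each; limma adjusted p = 5.3e-06). Tmem38b, which encodes a cation channel of the reticulum, was higher by 0.90 ± 0.11 (limma adjusted p = 2.2e-06). Mtmr2, a phosphoinositide phosphatase gene, was lower, with a difference of −0.81 ± 0.12 (limma adjusted p = 1.7e-05). Popdc2 was higher under miR-145 by 0.88 ± 0.15 (limma adjusted p = 4.2e-04). Tmem38b was also higher under miR-22 (0.83), miR-34a (0.69), miR-145 (0.67) and miR-365 (0.48), and Dysf under miR-22 (0.58), miR-29a (0.57) and miR-145 (0.54).

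Store-operated and mitochondrial entry genes were higher in 3 and lower in 1 of 14 measured under miR-1. Saraf, a regulator of store-operated entry, was higher by 0.70 ± 0.07 (limma adjusted p = 2.7e-07), and Mcu, the mitochondrial uniporter gene, by 0.55 ± 0.06 (limma adjusted p = 8.4e-07). Orai3, a store-operated channel gene, was lower under miR-22 (−0.73 ± 0.09; limma adjusted p = 1.1e-05). Homer1, a scaffold gene that binds ryanodine receptors, was lower under miR-365 (−0.62 ± 0.13; limma adjusted p = 0.00106) and under miR-22 (−0.53). Orai3 was also lower under Let-7b (−0.44) and higher under miR-365 (0.30). Saraf was higher under miR-22 (0.32) and Let-7b (0.26), and Mcu under miR-34a (0.20).

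Calcium-dependent signalling genes were higher in 6 and lower in 1 of 14 measured under miR-1. The lower one was Nfatc3, a transcription factor gene activated through calcineurin, with log2 levels of 10.64, 10.65 and 10.32 under miR-1, against 11.59, 11.64 and 11.60 in control. The difference of −1.08 ± 0.07 (SE, n = 3 each; limma adjusted p = 1.2e-09) was many times its error. Rcan2, a calcineurin regulator gene, was higher under miR-1 by 1.29 ± 0.12 (limma adjusted p = 3.6e-08) and Camk2g, a calmodulin-dependent kinase gene, by 0.78 ± 0.10 (limma adjusted p = 3.9e-06). Camk2b, another kinase gene of that family, was higher under miR-22 by 0.74 ± 0.13 (limma adjusted p = 2.6e-04) and under miR-1 (0.42). Rcan2 was also higher under miR-34a (0.62) and miR-29a (0.39) and Camk2g under miR-34a (0.37), while Nfatc3 was lower under Let-7b (−0.31) and miR-34a (−0.29).

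Promoter sequence was read for the 6 of the 10 genes that have a window in the RefSeq table (build GRCm38.p6), which were Ryr1, Cacna1s, Cacnb1, Atp2a1, Casq2 and Jph2. CAGCTG, the E-box form bound by myogenic transcription factors such as MyoD, reads the same on both strands and is itself a case of the general E-box CANNTG. Windows were the 250 bases upstream of each start in that table, some of which lie inside the annotated span of the gene. CAGCTG was found in windows of Cacna1s, Atp2a1 and Jph2, which is 3 of 6 genes. By window it was found in 4 of the 8 windows of the 6 genes, and in 13.0% of all 32851 windows of that length. The windows of Jph2 overlap, so the same Jph2 site was counted in each of them, here and for CANNTG below. The Jph2 match lies within the annotated gene, so that 2 of 6 genes had a match before it. CANNTG was found for 5 of 6 genes, 3 of them before the annotated gene. By window it was found in 6 of 8, and in 66.2% of all windows. A Mef2 core of CTA and TAG with 4 bases between them was found for 0 of 6 genes and in 3.2% of all windows. The shares of all windows include matches inside annotated genes, so the counts before the annotated gene have no like share beside them. The upstream bases of Cacna1s (chr1:136052561-136052805, plus strand) and Atp2a1 (chr7:126463104-126463323, minus strand) are shown 5′ to 3′ in the sense of the gene up to the edge of its annotation, with CAGCTG in capitals, as the voltage sensor and the pump gene with the widest distances from control to untransfected myoblasts.
Cacna1s: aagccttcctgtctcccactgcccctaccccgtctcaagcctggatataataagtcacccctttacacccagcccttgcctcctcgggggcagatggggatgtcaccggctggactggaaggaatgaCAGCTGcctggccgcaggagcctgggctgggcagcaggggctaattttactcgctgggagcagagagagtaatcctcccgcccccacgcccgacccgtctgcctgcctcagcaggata
Atp2a1: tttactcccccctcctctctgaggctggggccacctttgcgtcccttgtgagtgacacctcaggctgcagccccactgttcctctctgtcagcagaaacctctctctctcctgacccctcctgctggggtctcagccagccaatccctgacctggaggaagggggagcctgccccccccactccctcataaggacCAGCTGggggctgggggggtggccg
The match begins 118 bases before the annotated Cacna1s gene, which is 123 bases upstream of the listed start. It begins 25 bases before the annotated Atp2a1 gene, which is 55 bases upstream of the listed start. These matches describe letters in a window, and binding was not measured.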

How the data were processed

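The deposited log2 values of 29 mouse gene arrays were used as they stood. The authors made these log2 values with RMA in Affymetrix Expression Console 1.1, per the submitters' processing notes. RMA corrects background, equalises array distributions and summarises probes, which compresses differences of dim genes. Filters and genome build are not given in the sources used here. Of 35556 probe sets, 21789 had 1 symbol, 1621 several and 12146 none listed, which left 19938 genes after the brightest probe set of each was taken.

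Control arrays were averaged with the technical repeat of their number, giving 3 control values (r with the repeat 0.996 across probe sets). limma 3.58.1 (R 4.3.3; lmFit and eBayes with a trend) was fitted to 24 values in 8 groups, 2-sided, with Benjamini-Hochberg adjustment over all genes per comparison. Errors of differences are the model's standard errors. The fit was tested on simulated data. P values measure the spread between repeats of a transfection.

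Deviations from the group means were correlated between samples of equal replicate number, which the labels do not tie to a shared day. All 3 pairs with the control exceeded 0.1 under miR-365, miR-34a, miR-29a and miR-22, as did 75 of 84 pairs in all.

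The 10 genes, the lists of related genes and markers, and the tests were chosen with earlier results of these data known. Named are all 10 genes and, per role, up to 4 related genes with the largest difference among those called with groups that did not overlap. For likeness the 5 highest correlations are named. Values of genes that did not pass were picked after they were seen.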

Additional observations from a re-analysis of the deposited data

How the results depend on the processing

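No difference of the 10 genes or of the named related genes that had passed changed direction under any alternative. Counts of the 10 genes that passed in limma changed by over 1.5 times as follows. Apart from the replicate block shares above, no share of all genes stands beside these counts or the leave-one-out counts. They describe only how the calls depend on the processing. With technical repeats kept as a random block, 5 passed under miR-365 (2 higher and 3 lower), 2 under miR-145 (both higher) and 2 under Let-7b (both lower). With the replicate block, 5 passed under miR-365, 2 under miR-145 and 1 under Let-7b, and against the other 6 mimics 3 under miR-22. That block changed other calls only where given above and for Jph2, which passed under miR-1 (adjusted p = 0.0436) and Let-7b (0.0195), and, against the other 6, for Jph1 under miR-145 (0.0408) and Ryr3 under miR-1 (0.00254) and Let-7b (0.000711). With the mean of all probe sets of a gene, 1 passed under Let-7b. Without the dimmest 40% of genes, 1 passed under Let-7b, and 3 under miR-22 against the other 6 (1 higher and 2 lower). With only the mimic and the control in the model, 2 passed under miR-22, 0 under miR-145 and 1 under Let-7b. With further quantile normalization, 2 passed under miR-22 against the other 6. With all probe sets tested, an alternative chosen after seeing the data, 2 passed under miR-34a and 0 under miR-145. These alternatives cost Slc8a1 its call under miR-1 in 4 cases, and Cacna1g and Cacna2d1 theirs in 1 case each.

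Leaving out 1 sample at a time gave 6 to 10 genes against control under miR-1 (6 without miR-1 replicate 3), 1 to 4 under miR-34a (1 without control replicate 3), 1 to 3 under miR-365 (1 without miR-365 replicate 3), 1 to 2 under miR-29a, 0 to 1 under miR-145, 0 to 1 under Let-7b and 0 to 0 under miR-22. Without control replicate 1, the 3 under miR-365 were 2 higher and 1 lower. Ryr1 (0.61; limma adjusted p = 0.0402) and Stac3 (0.35; limma adjusted p = 0.0354) then passed as higher, while Casq2 and Jph2 lost their lower calls. Against the other 6, only samples of the mimic itself were left out, and none of the samples that form the comparison mean. This gave 8 to 9 under miR-1, 3 to 7 under Let-7b, 3 to 4 under miR-145, 2 to 3 under miR-34a, 3 to 3 under miR-365, 1 to 1 under miR-29a and 0 to 0 under miR-22. With the control in place of the untransfected myoblast, the myotube difference was 2.82 for Ryr1, 1.34 for Ryr3, 3.05 for Cacna1s, 2.67 for Cacnb1, 1.38 for Cacng1, 3.33 for Atp2a1, 3.46 for Casq2, 2.04 for Jph1, 0.85 for Jph2 and 2.45 for Stac3. The cause of these changes was not tested. The 1 array each of myotubes and myoblasts has no replicate check.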
